A study of Mus musculus with 25 samples.

Results

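The libraries described here are the control diet (CD) sperm libraries, 5 of the 25 in the series. They were chosen by their titles, which name a CD male. Each library came from 1 C57BL/6J male, named here by its number (males 10, 11, 12, 14 and 15). The males ate a diet with 18% casein, 21% sugar, 0% milk fat and 0% cholesterol for at least 8 weeks and had been mated before collection. Epididymides were sliced in medium, the motile cells were allowed to swim up, and total RNA of that fraction was depleted of ribosomal RNA and sequenced. Only these 5 libraries were analysed, and no diet was compared with another. The question was which transcripts make up the RNA of swim-up sperm in control males, and how evenly they do so between males.

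The labels and the data set limits on these libraries. For CD male 15 the title names the control diet, whereas its treatment field names a low protein diet. CD male 10 stood apart from the others. Across 15119 genes with a mean of at least 100 normalised counts (read counts divided by the library's size factor), the Pearson r of log2(count + 1) was 0.75 to 0.80 for pairs that included CD male 10 and 0.95 to 0.98 for the other pairs. These are correlations across genes, which are not independent replicates. The mean was taken over all 5 libraries, so genes high only in CD male 10 could enter this set through that library. Within the pairs without CD male 10, 95.3% to 99.1% of genes lay within 2-fold of each other, against 65.8% to 74.2% for pairs with it. Values of the main shares and genes are therefore given per library, and the mitochondrial, sperm and epididymal shares also without males 10 and 15. Because these are bulk samples, fewer cells of a type and less RNA per cell cannot be told apart.

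Sperm are nearly silent in transcription. Their chromatin is packed by protamines in place of histones during the last steps of spermatogenesis, and most of their cytoplasm is shed. The RNA they carry is mostly left from spermatids, with mitochondrial transcripts and small structural RNAs. During transit through the epididymis they meet secretions and vesicles of the epididymal epithelium. A swim-up fraction enriches motile sperm but can hold other cells, so transcripts of epididymal, blood and stromal cells were tallied beside those of the germ line.

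The transcripts that dominated these libraries are partly copies of one another. The 7SL RNA of the signal recognition particle, which guides nascent secreted proteins to the endoplasmic reticulum, is annotated at 2 genes on chromosome 12 of GRCm39, Rn7s1 and Rn7s2, which are identical over their 300 bases.

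Copies of this kind also join a mitochondrial gene and a chromosome 1 pseudogene. The first 90 bases of mt-Co2, subunit 2 of cytochrome c oxidase (chrM:7013-7102, plus strand), are set against those of Gm28661 (chr1:24654557-24654646, minus strand) to show why their reads cannot be separated. Over their whole length, 684 and 681 bases, they had 0 substitutions and differed by 3 bases of length.
mt-Co2: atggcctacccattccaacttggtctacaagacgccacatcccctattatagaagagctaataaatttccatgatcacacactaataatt
Gm28661: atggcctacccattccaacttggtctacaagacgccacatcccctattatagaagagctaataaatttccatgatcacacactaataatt

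The coding sequence of Prm1 is shown as the germ line transcript most closely tied to sperm chromatin. Protamine 1 is an arginine-rich protein that winds sperm DNA. Its coding bases span chr16:10614348-10614595 on the minus strand, with an intron between, and hold 156 bases. Arginine codons are in capitals and make up 28 of the 51 codons before the stop (54.9%).
Prm1 coding sequence: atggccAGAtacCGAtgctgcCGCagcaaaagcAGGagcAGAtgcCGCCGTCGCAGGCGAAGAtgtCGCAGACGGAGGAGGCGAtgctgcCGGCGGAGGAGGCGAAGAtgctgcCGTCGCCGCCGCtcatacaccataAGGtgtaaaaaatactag

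Each library held 32455480 to 38676778 reads assigned to genes. At this depth the 95% Wilson interval of any share given below reached at most 0.0140 percentage points to either side. A count of 0 allows up to 3 reads of these totals. Intervals of this kind cover counting error only. Of 47575 genes in the table, 40998 had a read in at least 1 CD library, 24709 had a read in all 5 and 4672 in 1 library only. CD male 10 had 26859 genes with a read, CD male 11 had 33069, CD male 12 had 35176, CD male 14 had 34927 and CD male 15 had 35573. CD male 10 was the lowest and the smallest library, but thinning the others to its depth left 31859 to 34214 genes. There were 4675 genes with reads in the other 4 libraries and 0 in CD male 10, against 128 to 437 genes missing in this way from any other single library.

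The reads were concentrated on few genes. The 10 most abundant genes took 24.3% of reads in CD male 10, 30.2% in CD male 11, 21.6% in CD male 12, 19.8% in CD male 14 and 21.7% in CD male 15, a mean of 23.5% ± 4.09 (SD, n = 5). The same 10 genes led all 5 libraries. They were mt-Co1, Rn7s1, Rn7s2, mt-Nd5, Rn7sk, mt-Cytb, mt-Nd1, mt-Nd4, mt-Co2 and Gm28661, so that mitochondrial and structural RNA preceded every nuclear messenger RNA. To reach 50% of reads took 253 genes in CD male 10, 62 in CD male 11, 340 in CD male 12, 429 in CD male 14 and 299 in CD male 15. CD male 11 was the most concentrated and CD male 14 the least. To reach 90% took 5241 to 6433 genes. Among the 30 most abundant genes of each library, 25 were shared by all 5 and 37 occurred in at least 1.

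**Figure D1:**
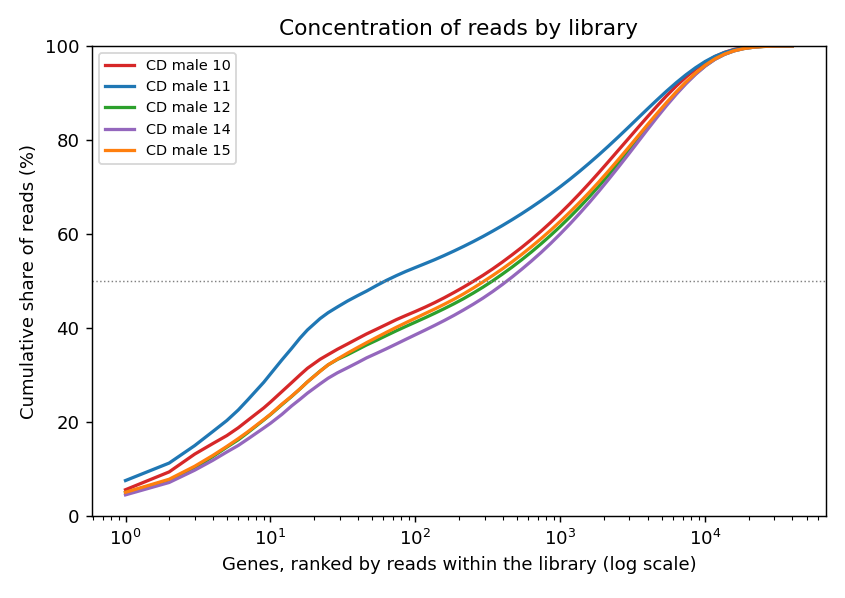
Cumulative share of assigned reads (%, vertical axis) against the number of genes ranked by reads within each library (log scale, horizontal axis), with 1 line per CD library and a dotted line at 50%. CD male 11 crosses 50% at 62 genes and the other 4 libraries at 253 to 429.

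Protein-coding genes, mitochondrial ones included, took 79.8% ± 1.53 of reads (SD, n = 5), with 77.4% in CD male 11 as the lowest and 81.3% in CD male 14 as the highest library. The class misc_RNA, which is mostly 7SL RNA and 7SK RNA with its relatives, took 9.32% ± 0.761. Unprocessed pseudogenes took 5.08% ± 1.08 and long noncoding RNA (lncRNA) 2.45% ± 0.217. Processed pseudogenes took 0.732% ± 0.0831, loci awaiting experimental validation (TEC) 0.620% ± 0.169, small nucleolar RNA (snoRNA) 0.224% ± 0.0437, ribozymes 0.199% ± 0.0393 and spliceosomal small nuclear RNA (snRNA) 0.184% ± 0.0504. Annotated ribosomal RNA genes held 0.0317% ± 0.0168, after depletion. Per exonic length, which corrects for long transcripts giving more reads, protein-coding genes came to 40.0% and misc_RNA to 39.2%. The 40.0% counts mitochondrial messengers too. All mitochondrially encoded genes came to 25.6% on that scale, and mitochondrial transfer RNA to 2.04%. Nuclear messenger RNA alone therefore stayed below misc_RNA.

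The biotypes differed in how evenly they were spread. The protein-coding share varied with a coefficient of variation (CV, the SD over the mean) of 1.92%, lncRNA with 8.84% and the immunoglobulin constant gene class (IG_C) with 114%. The 1.92% belongs to a sum of 2 parts that each varied more. Nuclear protein-coding genes took 52.8% to 66.7% of reads, a CV of 8.74%, and mitochondrial ones 14.6% to 24.6%, a CV of 21.5%. IG_C genes took 0.184% of reads in CD male 10 and 0.0149% to 0.0416% in the other 4 libraries, which did not overlap with it. CD male 10 was also the highest in TEC loci, at 0.870% against 0.446% to 0.702%. It was the lowest in snRNA, at 0.0995% against 0.183% to 0.232%, in snoRNA, at 0.151% against 0.224% to 0.267%, and in scaRNA (the small RNA of Cajal bodies), at 0.0186% against 0.0326% to 0.0403%.

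**Figure D2:**
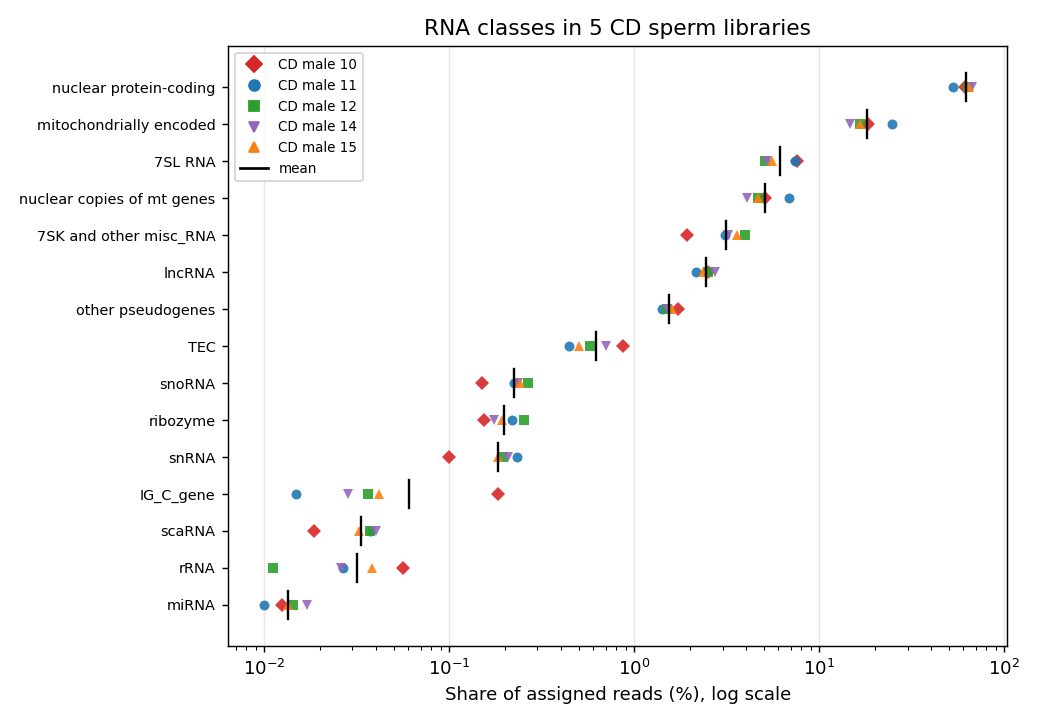
Share of assigned reads (%, log scale) of 15 RNA classes in each CD library, with 1 marker per library and a bar at the mean of 5. Nuclear protein-coding genes lead at 61.7%, followed by mitochondrially encoded genes at 18.2% and 7SL RNA at 6.16%, and CD male 10 lies apart in IG_C genes.

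The 37 genes of the mitochondrial genome encode 13 subunits of the respiratory chain and ATP synthase with their own ribosomal and transfer RNA. They took 18.4% of reads in CD male 10, 24.8% in CD male 11, 16.6% in CD male 12, 14.7% in CD male 14 and 16.5% in CD male 15. CD male 11 was the highest and CD male 14 the lowest. The mean was 18.2% ± 3.90 (SD, n = 5), 18.1% without CD male 10 and 18.6% without CD male 15. The 13 protein-coding genes accounted for 18.1% ± 3.88 of reads. Of 27 mitochondrial genes with a mean of at least 100, 23 were highest in CD male 11 and 20 were lowest in CD male 14, against 11.9% and 19.6% of all genes of that level.

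Cytochrome c oxidase subunit 1, mt-Co1, was the single gene with the most reads in every library. It took 5.64%, 7.59%, 5.05%, 4.55% and 5.10% of reads in CD males 10, 11, 12, 14 and 15. NADH dehydrogenase subunit 5, mt-Nd5, followed at 2.19% ± 0.479 and cytochrome b, mt-Cytb, at 1.69% ± 0.305. The only messenger of the opposite strand, mt-Nd6, stood at 0.555% ± 0.124. The 2 mitochondrial ribosomal RNA genes together held 0.0141% ± 0.00485 of reads, in libraries made after ribosomal RNA depletion, with mt-Rnr2 at 4763, 4134, 1433, 3377 and 3978 normalised counts in CD males 10, 11, 12, 14 and 15. The 22 mitochondrial transfer RNA genes held 0.109% ± 0.0185.

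Most reads of unprocessed pseudogenes lay in copies of mitochondrial genes. On chromosome 1, 7 pseudogenes matched the mitochondrial genome at 99% identity or more over at least 95% of their length, and together took 5.07% ± 1.08 of reads. Without them, unprocessed pseudogenes took 0.132%. Mitochondrial genes and these copies together held 23.3% ± 4.98 of reads. For Gm28661 and its counterpart mt-Co2 the ratio of counts was 0.993 to 0.997 across the 5 libraries, and for Gm28437 and mt-Co3 it was 0.992 to 0.999. Gm10222 and mt-Nd4l gave 0.994 to 0.999, Gm28438 and mt-Nd3 0.986 to 0.991, and Atp6-ps and mt-Atp6 1.06 in each library. Gm28439, which matches a stretch of 876 bases of mt-Nd4, gave 0.364 to 0.385, and Gm29216, which matches 483 bases of mt-Co1, 0.137 to 0.154. Whether a read was entered once or under both genes is not given in the sources used here.

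**Figure D3:**
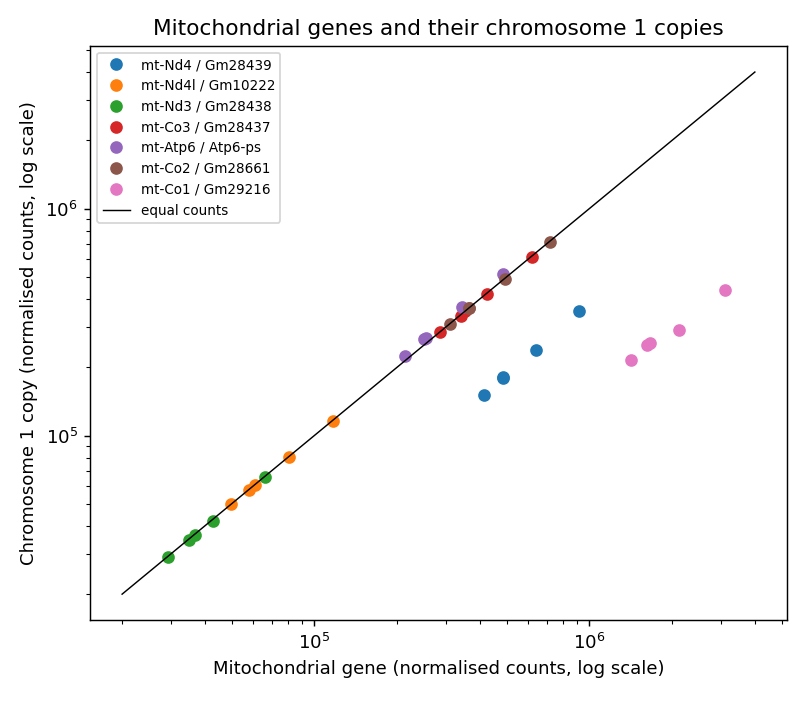
Normalised counts of 7 chromosome 1 pseudogenes (vertical axis, log scale) against those of the mitochondrial gene each one matches (horizontal axis, log scale), with 5 points per pair, 1 for each CD library, and a line of equal counts. The 5 pairs that match over nearly the full gene lie along the line, at ratios of 0.986 to 1.06, and the 2 that match part of a gene lie below it.

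Structural RNAs made by RNA polymerase III formed the next layer. The 7SL genes took 7.56% of reads in CD male 10, 7.43% in CD male 11, 5.06% in CD male 12, 5.24% in CD male 14 and 5.53% in CD male 15. CD males 10 and 11 were higher than the other 3. With both genes summed, 7SL RNA exceeded mt-Co1 in every library but CD male 11, whereas each gene alone lay below mt-Co1 in all 5. The sources used here do not say if a 7SL read was entered once or under both genes, so this sum is uncertain. Rn7s1 and Rn7s2 gave a ratio of 0.9997 to 1.02 over the 5 libraries, and reads of these entries cannot be told apart by sequence. Of their exonic bases, 100% and 49% are also shared with other annotated genes by position. 7SK RNA, which holds the elongation factor P-TEFb in an inactive complex, was read from Rn7sk at 1.23% of reads in CD male 10, 1.94% in CD male 11, 2.56% in CD male 12, 2.10% in CD male 14 and 2.29% in CD male 15. CD male 10 was the lowest, the reverse of 7SL. Other entries, Gm54754, Gm55636 and Gm55604, were 82.4%, 83.4% and 81.7% identical to Rn7sk and took 0.501%, 0.436% and 0.105% of reads.

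Catalytic and processing RNAs were lower. Rpph1, the RNA of ribonuclease P, which trims transfer RNA, took 0.102% ± 0.0242 of reads, although 87% of its exonic bases are shared with other annotated genes. Rmrp, the RNA of ribonuclease MRP, is entered both as a ribozyme and as a lncRNA that contains the same 271 bases. The ribozyme entry stood at 23642, 35934, 42755, 32520 and 31071 normalised counts in CD males 10, 11, 12, 14 and 15. The lncRNA entry stood at 20537 in CD male 11 and at 8.13 to 19.6 in the other 4. Of the U3 small nucleolar RNA genes, each of Snord3b1 to Snord3b4 is also entered under 2 overlapping identifiers. For Snord3b2 the entries moved between near 0 and over 10000 from library to library, with a CV of up to 148%, while their sum was 9080, 14221, 13283, 10799 and 11830, a CV of 17.1%. Summing did not steady Rmrp, whose entries summed to 23650, 56471, 42774, 32534 and 31081, a CV of 34.0% against 21.0% for the ribozyme entry alone. Single entries of such genes are uncertain. The spliceosomal U2 genes Gm24950, Gm23849, Rnu2-10 and Gm26316 are 99.5% to 100% identical, so a read can match all of them. Together they summed to 17371, 52643, 33227, 33234 and 28969 normalised counts, lowest in CD male 10.

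The 40 nuclear protein-coding genes of largest mean share took 7.32% ± 0.725 of reads, and 5 of them were in the sperm lists and 6 in the epididymal list. Crisp1 (chr17:40604649-40739170), which the epididymal epithelium secretes onto sperm, led them with 0.260%, 0.864%, 0.857%, 0.883% and 0.860% of reads in CD males 10, 11, 12, 14 and 15. Its rank among all genes was 29 in CD male 10 and 13 to 18 in the others. Gpx3, a secreted glutathione peroxidase, took 0.461% ± 0.163, although 85% of its exonic bases are shared with other annotated genes. Odf1 (chr15:38219447-38226979), which builds the dense fibres that stiffen the flagellum, took 0.576%, 0.472%, 0.319%, 0.299% and 0.408%, and was highest where Crisp1 was lowest. Eef1a1, the translation elongation factor, took 0.412% ± 0.0844 and Cd52, a small anchored glycoprotein that epididymal cells pass to sperm and that leukocytes also make, 0.271% ± 0.123. Akap12, a scaffold for protein kinase A, took 0.268% ± 0.0701, and Oaz3 and Smcp, a germ cell antizyme and a protein of the sperm mitochondrial capsule, 0.239% each.

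The 40 genes fell into patterns across libraries. Of them, 18 were highest in CD male 10 and lowest in CD male 12 or 14, and 16 were lowest in CD male 10. The first pattern held Odf1, Akap12, Oaz3, Smcp and Gpat4, an enzyme of glycerolipid synthesis. It also held Hk1 (the hexokinase that opens glycolysis), Gstm5 (a glutathione transferase), Sord (sorbitol dehydrogenase) and Reep6, and in its library values Odf1 ran from 93431 in CD male 14 to 217030 normalised counts in CD male 10. The other pattern held Crisp1, Cd52, Serpina1f, Ces5a, Cuzd1, Serpina16, Adam7 and Ptgds. Ces5a, a carboxylesterase secreted by the epididymis, stood at 19527, 72298, 63619, 72101 and 72648 normalised counts in CD males 10, 11, 12, 14 and 15, and CD male 10 did not overlap with the others. Serpina1f and Serpina16, both serine protease inhibitors, averaged 0.230% and 0.163% of reads. Over all 15119 genes with a mean of at least 100, 39.1% were highest in CD male 10 and 40.5% were lowest there, so this library was an extreme for most genes and not for these alone.

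**Figure D4:**
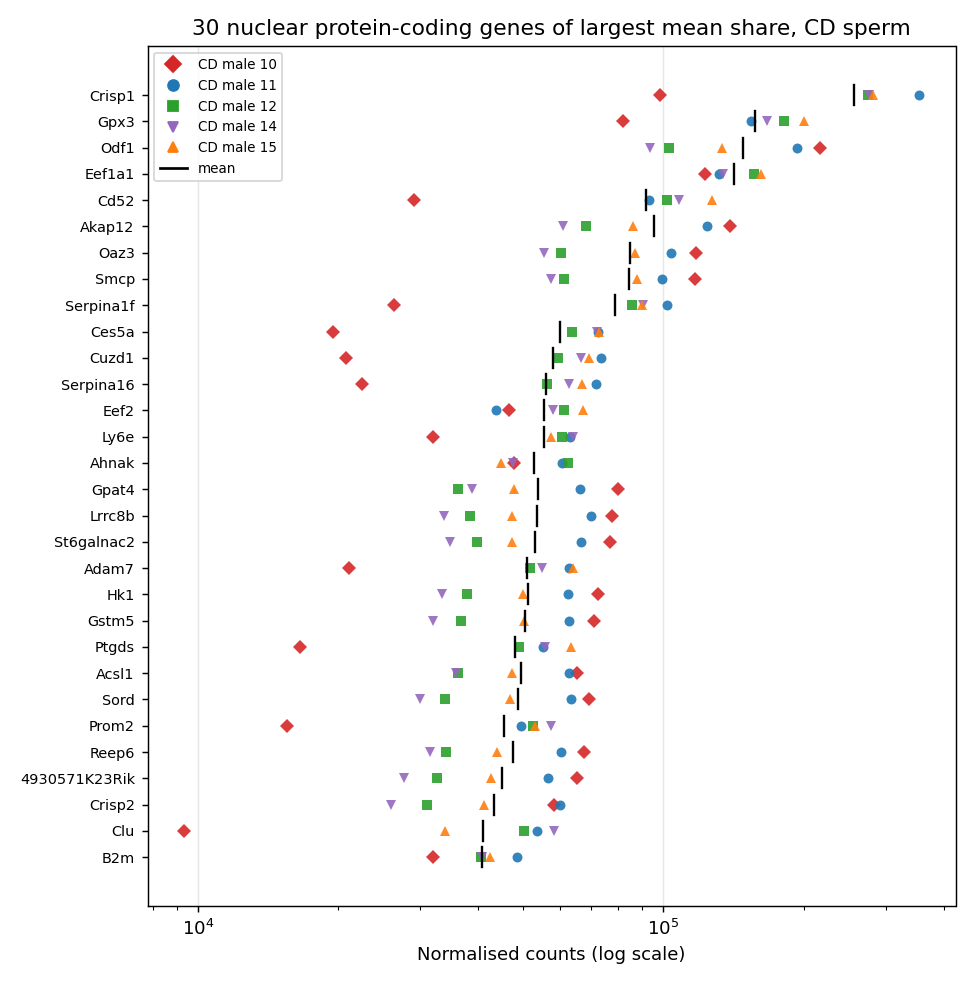
Normalised counts (log scale) of the 30 nuclear protein-coding genes of largest mean share, with 1 marker per CD library and a bar at the mean of 5. CD male 10 is the highest library for Odf1, at 217030, and the lowest for Crisp1, at 98085, and both patterns recur down the list.

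Levels were also set per length, as TPM (counts over length, scaled to a fixed total per library), since a long messenger gives more reads than a short one. The length was the union of annotated exons, or the canonical transcript as an alternative chosen after seeing the data. With either length Crisp1 led the nuclear protein-coding genes, at 5587 ± 2138 TPM with exonic length (SD, n = 5) and 6088 ± 2284 with canonical length. With exonic length Odf1, Cd52, Gpx3, Smcp and Wfdc10 followed, and with canonical length Cd52, Odf1, Smcp, Oaz3 and Eef1a1. Wfdc10, a small secreted protein with a whey acidic protein domain, ranked 104 among all genes by reads and 6 among nuclear protein-coding genes per exonic length. The choice of length moved the protamines most among the markers. Prm1 stood at 361 ± 97.2 TPM with exonic length and 758 ± 208 with canonical length, and Prm2 at 197 ± 51.3 and 873 ± 228. Of the 20 nuclear genes of highest level per exonic length, 15 were also among the 20 highest by canonical length.

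The germ line lists of the sperm were measured in full. All 139 genes of 6 lists (chromatin, tail, acrosome and gamete fusion, energy metabolism, ion channels, and other late spermatid genes) had a mean of at least 5 normalised counts, and 133 had a read in all 5 libraries. They took 2.44%, 2.02%, 1.49%, 1.37% and 2.01% of reads in CD males 10, 11, 12, 14 and 15, with a mean of 1.87% ± 0.435, 1.72% without CD male 10 and 1.83% without CD male 15. CD males 12 and 14 were lower than the other 3. Of the 119 members with a mean of at least 100, 87 were lowest in CD male 14 and 61 highest in CD male 10. Over all genes of that level, 19.6% were lowest in CD male 14 and 39.1% highest in CD male 10.

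The protamines and transition proteins replace histones in turn. Prm1 stood at 16939, 13109, 7866, 6959 and 10148 normalised counts in CD males 10, 11, 12, 14 and 15. Prm2, the second protamine, stood at 21462, 21107, 12233, 9474 and 20204. Prm2 exceeded Prm1 in each library, and their ratio, Prm1 over Prm2, was 0.502 to 0.789 in counts, although per canonical length it was 0.671 to 1.06. Tnp2, a transition protein, stood at 12380, 10536, 7262, 6969 and 9393, while Tnp1 was at 772 to 1510. Prm1 ranked between 153 and 478 among all genes of its library and Prm2 between 102 and 282, so neither was among the 100 most abundant in any library. Of the exonic bases of Prm1, 64% are shared with other annotated genes, as are 67% of those of Oaz3. H1f7 and H1f9, linker histones of spermatids, were at 384 to 740 and 373 to 661, and the chromatin list as a whole took 0.113% ± 0.0263 of reads.

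Genes of the sperm tail were the largest germ line list, at 1.18% ± 0.279 of reads, and all 35 matched members had a mean of at least 100. Odf1, Oaz3 and Smcp made up most of it, at a mean of 147969, 84821 and 84425 normalised counts. Smcp stood at 116664, 99362, 61085, 57403 and 87613 in CD males 10, 11, 12, 14 and 15. The libraries came in the same order as for Odf1. Tcp11, which acts in sperm motility, averaged 33939, and Akap4, the main protein of the fibrous sheath, 12363. The axonemal genes Dnah8, Spag16 and Dnah17 averaged 10011, 6139 and 2800. At the low end of the list Tekt5 averaged 106.

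Of the acrosome and fusion genes, Crisp2 stood out at 43286 normalised counts on average, with 25935 in CD male 14 and 59958 in CD male 11 as its extremes. Crisp2 is a protein of the acrosome and tail. The next members, Adam3 and Llcfc1, averaged 1934 and 1691, and Izumo1, the sperm ligand of the egg receptor, averaged 123. Sperm glycolysis genes were led by Gapdhs at 19085, 19435, 11518, 8931 and 16695 and Pgk2 at 16888, 15426, 8293, 7476 and 11934. Gapdhs is the isoform of spermatids and sperm, and it exceeded the somatic Gapdh, at 512 to 779, by a factor of 11.5 to 37.2. Gapdh has many processed pseudogenes that can share its reads, so its own value is uncertain. The channel genes were lower, with Catsperg1 at 3180 to 5968 and Catsper2 at 1535 to 2449, and Catsper1, the pore subunit of the calcium channel CatSper, averaged 184. Other late spermatid genes included Spem2 at 17022 on average, Klhl10 at 14283 and Tssk6 at 12543.

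Genes of earlier germ cells took less than the 6 sperm lists together. Of 28 genes of meiotic prophase, 27 had a mean of at least 5, and the list took 0.0440% ± 0.00793 of reads. Relative to the 6 sperm lists it was steady, at 0.0216 to 0.0255 in each library. Syce2, a central element protein of the synaptonemal complex, held the largest part at 9519, 8964, 4376, 4203 and 6508 normalised counts. Its order over the libraries was that of the sperm genes, and it weighs most on the steady ratio. Rec8, a meiotic cohesin subunit, ran otherwise, at 760 in CD male 10 and 1094 to 1245 in the others. Spermatogonial genes took 0.00606% ± 0.00216, and the stem and progenitor markers Nanos2, Lin28a, Sall4 and Stra8 each had 0 reads in at least 2 libraries.

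Epididymal secretory genes took a mean share near that of the sperm lists, in a different order of libraries. Both shares depend on which genes were listed, here 63 epididymal and 139 sperm genes. Crisp1 alone averaged 0.745% of reads, and Serpina1f, Cuzd1 and Serpina16 are not in the epididymal list. The 63 genes matched took 0.573% of reads in CD male 10, 1.83% in CD male 11, 2.04% in CD male 12, 2.21% in CD male 14 and 2.17% in CD male 15. CD male 10 did not overlap with the other 4. The mean was 1.76% ± 0.682, 2.06% without CD male 10 and 1.66% without CD male 15. Set over the 6 sperm lists, this gave 0.235 in CD male 10, 0.907 in CD male 11, 1.36 in CD male 12, 1.61 in CD male 14 and 1.08 in CD male 15. Of the 32 members with a mean of at least 100, 30 were lowest in CD male 10, against 40.5% of all genes of that level. Their median ratio of CD male 10 to the median of the other 4 was 0.301, against 0.995 over all genes.

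The epididymal list was uneven in its members. Crisp1 stood at 98085, 353642, 275367, 276174 and 281420 normalised counts in CD males 10, 11, 12, 14 and 15, and Cd52 at 29150, 93019, 101855, 108168 and 127095. Ptgds, which makes prostaglandin D2 and carries lipids, stood at 16581, 55204, 48834, 55802 and 63316, and Clu, the chaperone clusterin, at 9344, 53421, 50181, 58173 and 33917. Spink8, a protease inhibitor, averaged 0.0447% of reads and Defb28, a beta-defensin, 0.0263%. Lipocalins of the proximal epididymis were near 0, as Lcn8 had 0 reads in CD males 10 and 11 and 17 to 24 normalised counts in the others and Lcn5 and Lcn6 had reads in 1 library each. Wfdc2 had 0 reads in all 5. Gpx5, a peroxidase abundant in the caput, stood at 421 to 1163. Genes of clear and basal cells, such as Foxi1, the transcription factor of proton-pumping cells, took 0.0145% ± 0.00516.

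Blood and immune transcripts differed most between libraries. The 22 leukocyte genes took 0.505% of reads in CD male 10 and 0.128% to 0.175% in the others, with a mean of 0.215% ± 0.164, or 0.142% without CD male 10. All 22 had reads in every library and a mean of at least 100. Of them 14 were highest in CD male 10 and 8 in CD male 11, against 39.1% and 11.9% of all genes of that level. The leukocyte genes thus did not all share 1 order. Ptprc (CD45), found on all white cells, stood at 37506, 3504, 3868, 2514 and 3554 normalised counts in CD males 10, 11, 12, 14 and 15. Cd79a, a subunit of the B cell receptor, stood at 4768, 278, 546, 294 and 499, and Ighm, the constant gene of IgM, at 35207, 4015, 7811, 4886 and 8312. Lyz2, the lysozyme of macrophages and other myeloid cells, stood at 11821, 8467, 8654, 6387 and 5570, where CD male 10 was again the highest but nearer to the rest. C1qa, a complement subunit of macrophages, was at 675 in CD male 10 and 575 to 1097 in the others, so CD male 10 lay within their range. All 12 genes of B lymphocytes and antigen presentation were highest in CD male 10. Of 8 macrophage genes, a group without Lyz2, only 1 was. The macrophage genes summed to 9657, 10976, 9687, 7901 and 6286 in CD males 10, 11, 12, 14 and 15.

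Red cell transcripts followed another order. Alpha globin (Hba-a1 and Hba-a2, whose reads may be shared) summed to 48025, 5216, 13079, 28533 and 20536 normalised counts in CD males 10, 11, 12, 14 and 15, and beta globin (Hbb-bs and Hbb-bt) to 27800, 2983, 6674, 15935 and 11440. CD male 10 was the highest and CD male 11 the lowest in all 5 members with a mean of at least 100. Of all 15119 genes of that level, 39.1% were highest in CD male 10 and 2602 were lowest in CD male 11. The list took 0.107% ± 0.0716 of reads, 0.0822% without CD male 10. Of the endothelial genes Pecam1, which leukocytes also carry, stood at 4657 in CD male 10 and 281 to 475 in the others, while Cdh5, the endothelial cadherin, was at 179 to 403 in all 5. Fibroblast and matrix genes took 0.144% ± 0.0299, at 0.126%, 0.154%, 0.193%, 0.127% and 0.122% in CD males 10, 11, 12, 14 and 15. Of 17 members with a mean of at least 100, 9 were highest in CD male 12 and 7 in CD male 11. Over all 15119 genes of that level these numbers were 1474 and 1804. Dcn, the matrix proteoglycan decorin, was highest in CD male 11 at 19764 and stood at 9228 to 12621 elsewhere.

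Other somatic sources were small. Smooth muscle genes took 0.0194% ± 0.00739 of reads and adipocyte genes 0.00328% ± 0.00148. The seminal vesicle list took 0.00314% ± 0.00131, mostly as Spinkl, and Svs4, a main seminal vesicle secretion, had 0 reads in CD male 10 and 66 to 114 normalised counts in the others. Sertoli cell genes took 0.0215% ± 0.00768. Of these, Tjp1 is made by epididymal epithelium as well, and the more restricted Rhox5 had 0 reads in all 5 libraries, Fshr and Defb19 in 4 of 5. Leydig cell genes took 0.00136% ± 0.000378, and Lhcgr had 0 reads throughout. The part that epididymal, blood and stromal cells have in any share above was not tested.

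**Figure D5:**
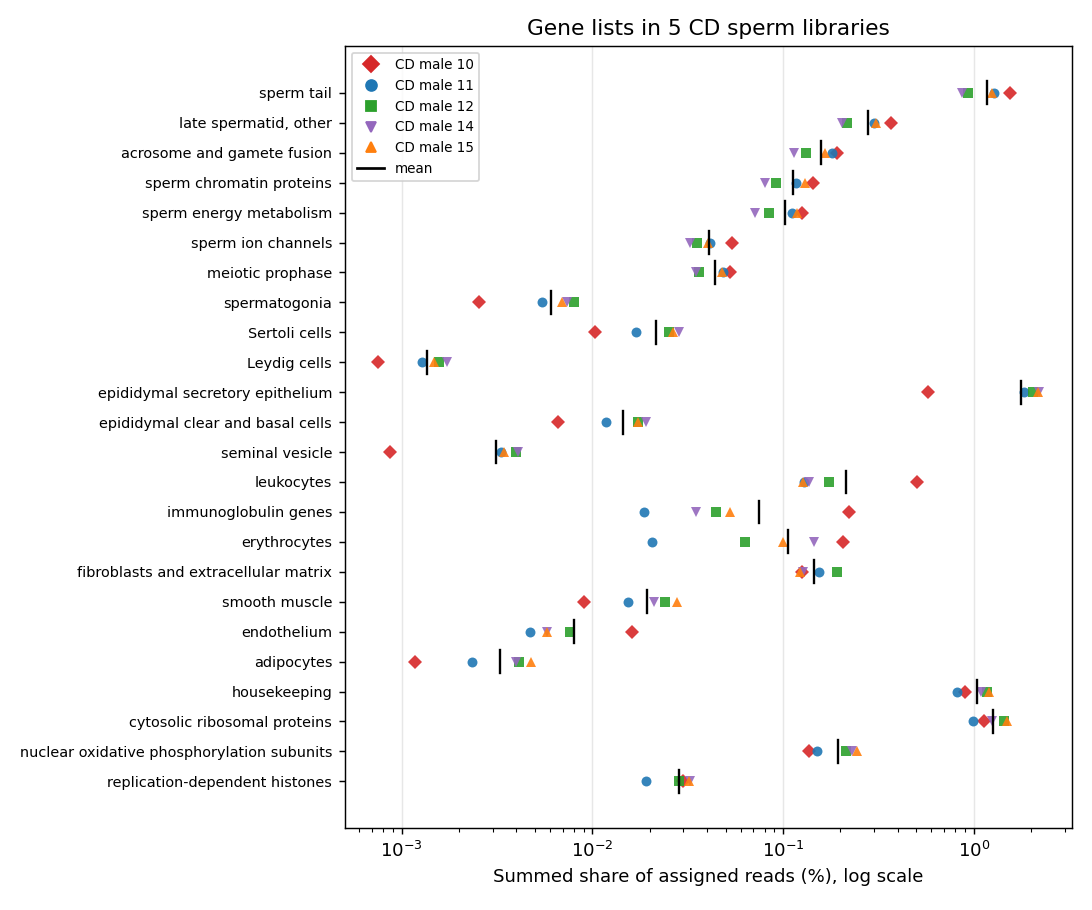
Summed share of assigned reads (%, log scale) of 24 gene lists in each CD library, with 1 marker per library and a bar at the mean of 5. Epididymal secretory genes (0.573% in CD male 10, 1.83% to 2.21% in the others) and leukocyte genes (0.505% in CD male 10, 0.128% to 0.175% in the others) place CD male 10 apart in opposite directions.

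Genes that most cells use varied less. The 17 housekeeping genes took 1.04% ± 0.172 of reads, and the median CV of their members was 14.5%, against 23.7% over all genes with a mean of at least 100. Eef1a1 stood at 122875, 131644, 156306, 134239 and 162168 normalised counts in CD males 10, 11, 12, 14 and 15, and Eef2, which moves the ribosome along, at 43648 to 67142. Actb, cytoplasmic actin, stood apart within the list, at 53695 in CD male 10 and 32394 to 37365 in the others. The 79 cytosolic ribosomal protein genes took 1.26% ± 0.213 and had a median CV of 13.04%. Of them Rps3a1 stood at 13794 to 16486. Within this list 45 genes were highest in CD male 15 and 42 lowest in CD male 14, against 11.2% and 19.6% of all genes with a mean of at least 100. The 84 nuclear genes of oxidative phosphorylation took 0.195% ± 0.0483, far below the 13 mitochondrial ones, and 63 of the 76 with a mean of at least 100 were highest in CD male 15, against the same 11.2%. Replication-dependent histone genes took 0.0284% ± 0.00538.

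The spread between libraries was measured per gene as the CV of normalised counts. For the 15119 genes with a mean of at least 100 the median was 23.7%, with 50% of genes between 14.6% and 36.0%, and counting error made up little of it, since 23.2% was left once it was taken off. Without CD male 10 the median was 12.8%, lower by over 1.5 times. A CV over 100% was found for 605 genes, of which 586 were highest in CD male 10. The filter used the mean over all 5 libraries, so genes high only in CD male 10 could pass it through that library. This count is therefore not independent of the filter. By list, the median CV was 26.9% for sperm chromatin, 29.9% for the tail, 37.8% for epididymal secretion, 71.3% for red cells and 111% for immunoglobulins. Of the lists, immunoglobulin and red cell genes had the highest medians and ribosomal and housekeeping genes the lowest.

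The genes at either end of the spread were unlike. Of the genes with a mean of at least 1000, the 10 of smallest CV included Slc25a46, a mitochondrial outer membrane protein, at 1177, 1186, 1200, 1162 and 1197 normalised counts in CD males 10, 11, 12, 14 and 15. They also included Gna12 (a G protein subunit, at 1673 to 1735), Clcn4 (a chloride and proton exchanger, at 1509 to 1586) and Tmf1 (at 2736 to 2902), with Rbpms, Ankrd40, Uri1, Trip4, Rdx and Cbx3. The 10 of largest CV were the lncRNA entry of Rmrp, described above, and 9 genes high in CD male 10 only. Among these Ighd, the constant gene of IgD, stood at 20391 against 504 to 829 and Btla, a lymphocyte checkpoint receptor, at 9461 against 266 to 546. Ccr7 and Cxcr4, chemokine receptors of lymphocytes, stood at 9185 against 296 to 576 and 8729 against 252 to 477. P2ry10, the lncRNA BE692007 and the TEC loci Gm37248 and 5830444F18Rik were also among them. BE692007 stood at 152 to 277 in the other libraries and 5830444F18Rik at 161 to 221. All of these named genes stayed under 1000 outside CD male 10, so they passed the filter on the mean through that library. That they were high there follows in part from the filter.

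Noncoding RNA outside the structural classes was led by Malat1, a nuclear lncRNA of splicing speckles (chr19:5845717-5853602). It stood at 313865, 270674, 284948, 307313 and 252058 normalised counts in CD males 10, 11, 12, 14 and 15, a CV of 8.95%, and took 0.827% ± 0.121 of reads, more than any nuclear messenger by mean share. Crisp1 took more than Malat1 in CD males 11 (0.864% against 0.661%) and 15 (0.860% against 0.771%), and less in CD males 10, 12 and 14. Neat1, the scaffold of paraspeckles, was steady too, at 15446 to 21087. Wbscr25 varied as the sperm genes did, at 110955, 93092, 49641, 52048 and 64281, and Kcnq1ot1, an imprinted antisense RNA, was at 7656 to 10609. Among TEC loci Gm37248 stood at 11340 in CD male 10 and 292 to 434 in the others, and Gm37033 at 6680 and 968 to 1079. Pseudogenes other than the mitochondrial copies took 1.55% ± 0.116. There were 541 identifiers with no name in the annotation used, which together took 0.323% ± 0.0824. The largest of them alone took 0.246%.

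The nuclear genome was represented unevenly by chromosome. After mitochondrial genes, their copies and 7SL were set aside, chromosome 11 took 8.44% ± 0.148 of the remaining reads and chromosome 9, which holds Rn7sk and Eef1a1, 8.43% ± 0.701, with 6.52% and 5.41% of the genes that had a mean of at least 5. Chromosome X took 2.37%, 2.89%, 3.23%, 3.30% and 3.18% in CD males 10, 11, 12, 14 and 15, with 3.62% of the genes. CD male 10 was the lowest. The X-linked genes of largest share, chosen after their values were seen, were the 7SK-like Gm55604, the ubiquitin ligase gene Huwe1, at 18736 to 25231 normalised counts, and Rpl10, at 14039 to 22978. Hdac6, a tubulin deacetylase, and Ocrl, a lipid phosphatase, were low in CD male 10, at 5817 and 4022 against 16966 to 23975 and 15673 to 19726. The Y chromosome took 0.0496% ± 0.00407 of the same reads, with Eif2s3y at 1876 to 2261 and Uty at 1705 to 1996, both ubiquitous genes. Sry, the testis-determining gene, stood at 952, 573, 353, 376 and 496.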

How the data were processed

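Sperm RNA of 5 CD males was analysed, and 20 libraries of other diets were not used here. Per the methods and labels, the authors used Trim Galore 0.6.7 for trimming, HISAT2 2.2.1 for alignment (GRCm39) and StringTie 2.2.1 for counting. The annotation release, strand setting and treatment of reads with several matches are not given in the sources used here. Values were deposited as signal, that is, gene counts scaled by DESeq2 size factors. Dividing each column by its smallest step gave whole reads, to within 0.01, for 100% of values.

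GENCODE vM39 named 47034 of 47575 genes and gave biotypes, positions and lengths. Pseudogenes were matched to the mitochondrial genome with BLAST 2.17.0. Shares are of all assigned reads. The CV was checked on simulated counts. Alternatives changed denominators, length, filters and scaling (TMM, edgeR 4.0.16), or left out each library. No 2 libraries agreed within sampling noise (lowest chi-square per degree of freedom 20.9). Sequences were read from the GRCm39 reference. The members and lists were chosen with earlier results of these data known. Genes named were the 30 of largest share, the 20 protein-coding ones of highest level per length, the 5 largest of each biotype, the 4 largest of each list, 6 markers, and the 10 of smallest and 10 of largest CV. Other genes named, such as further nuclear protein-coding genes of the largest 40 and list members near 0 or kept for their role, were chosen after their values were seen, and some items are not reported here. Each male is 1 library, so the SD covers differences between males and in preparation. Software was Python 3.11.15, numpy 2.4.6, pandas 2.3.3 and matplotlib 3.10.9.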

Additional observations from a re-analysis of the deposited data

Results flagged for a closer look

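For 225 results (class shares, list shares and genes given above) the library farthest from the rest was compared with the range of all 5. A gap above 0.71 of the range, Dixon's critical value for 5, was met by 42, of which CD male 10 was the library apart in 35. Chance gives about 1 in 20 for a group picked without regard to its values. Here some genes were named for their large CV or after their values were seen, and several results overlap, so the count cannot be set against that rate. CD male 10 was high for the share of reads of IG_C genes (0.184%), IG_V genes (0.0317%), all immunoglobulin genes (0.221%), leukocyte genes (0.505%) and endothelial genes (0.0162%). Pecam1, which leukocytes also make, holds most of the last, and it was the only 1 of 6 endothelial genes with a mean of at least 100 that was highest there. It was low for the epididymal secretory list (0.573%), the seminal vesicle list (0.000875%) and the number of genes with a read (26859).

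By gene, in normalised counts, CD male 10 was high for Cd74 (38165), H2-Aa (43409), Ptprc (37506), Cd79a (4768), Ighm (35207), Ighd (20391), Igkc (11587), Btla (9461), Ccr7 (9185), Cxcr4 (8729), P2ry10 (10983), BE692007 (5327), 5830444F18Rik (4913), Pecam1 (4657), Actb (53695), Insl3 (44.1), Gm37248 (11340) and Gm37033 (6680). It was low for Ces5a (19527), Adam7 (21079), Serpina1f (26435), Cuzd1 (20802), Wfdc10 (4887), Spink8 (4858), Spinkl (304), Tjp1 (940) and Ocrl (4022). CD male 11 was high for the lncRNA entry of Rmrp (20537) and CD male 12 for 1 of the 2 entries of Snord3b1 (14763), both genes with overlapping entries. Genes read in 1 library alone also met the value: Stra8 (14.6), Lcn5 (8.21) and Defb19 (2.74) in CD male 14, Fshr (3.41) in CD male 12 and Lcn6 (2.64) in CD male 15.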

How the results depend on the processing

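No paired analysis was possible because no groups were compared. Values are means of the 5 libraries. With mitochondrially encoded genes and 7SL left out of the total, 852.6 genes held 50% of reads in place of 276.6, the top 10 took 12.6%, and the shares were 81.5% protein-coding, 4.16% misc_RNA, 3.24% lncRNA, 6.81% unprocessed pseudogenes, 2.49% sperm lists, 1.66% ribosomal proteins and 2.80% chromosome X. Leaving out the nuclear copies (chosen after seeing the data) gave 84.0% protein-coding, 0.132% unprocessed pseudogenes and, with 7SL and mitochondrial genes also out, 2.996% chromosome X, and adding the copies to mitochondrial genes gave 23.3%. With genes of under 10% exonic overlap only, the shares were 86.0% protein-coding, 4.08% misc_RNA, 1.05% lncRNA and 6.73% unprocessed pseudogenes. Per exonic length they were 40.0%, 39.2%, 0.929% and 10.1%, with 25.6% mitochondrial, 1.25% sperm and 0.728% ribosomal proteins. The median CV was 55.1% with no filter, and 12.8% to 25.6% with 1 library left out. Of the remaining alternatives, 21 that changed a setting and 119 that left out a library moved a value by less than the spread between libraries, or a count by less than 1.5 times. Leaving out 1 of 5 libraries cannot move a mean by as much as that spread (the SD). For means that outcome was fixed in advance, and it does not show how far a result rests on 1 library. For the leukocyte share that spread was wide because of CD male 10, and the share went from 0.215% to 0.0822% per exonic length and to 0.142% without that library.

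Counting error was small for abundant genes. The limits lie in reads shared by near-identical or overlapping genes, in annotated lengths, and in having 5 libraries of which 1 stands apart and 1 has labels that disagree.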
